A study of Mus musculus with 12 samples.

Results

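The genes described here are 8 Toll-like receptors (*Tlr1*, *Tlr2*, *Tlr4*, *Tlr6*, *Tlr7*, *Tlr8*, *Tlr9* and *Tlr13*), the endosomal trafficking protein *Unc93b1* and the lipopolysaccharide co-receptor *Cd14*. They were taken by symbol from the deposited count table, which lists 54532 genes. Each of the 10 symbols matched a single row, and all 10 were among the 14894 genes with enough reads to be tested. The cultures were bone marrow cells of wild-type (WT) C57BL/6 mice, grown with GM-CSF and IL-6 in a medium meant to give rise to myeloid-derived suppressor cells. They received vehicle (0.1% DMSO), 10 µM or 50 µM indole-3-propionic acid (IPA), a tryptophan metabolite made by gut bacteria. The paper calls 50 µM supraphysiological and reports slightly lower cell viability at that dose, but not at 10 µM. It therefore centred its own RNA-seq analysis on 10 µM. The part of lower viability in the 50 µM values was not tested. Medium and compounds were renewed on day 3 and the cells were harvested on day 5, with 4 RNA-seq libraries in each of the 3 groups. The question was how IPA alters what the cultured cells express. No source used here says whether the 4 libraries of a group came from separate mice, so p-values measure the spread between these libraries, which may be technical.

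Toll-like receptors recognise conserved microbial molecules and start inflammatory signalling through the adaptors MyD88 and TRIF. At the cell surface, TLR2 pairs with TLR1 or TLR6 to bind bacterial lipoproteins, and TLR4, with its partner MD-2 (*Ly96*), binds lipopolysaccharide handed over by CD14. TLR7, TLR8, TLR9 and TLR13 sense nucleic acids inside endosomes, which they reach only with the chaperone UNC93B1, and proteases there trim their ectodomains before they signal. Monocytes, macrophages, neutrophils and dendritic cells carry different sets of these receptors, and B cells and plasmacytoid dendritic cells are rich in TLR7 and TLR9.

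The libraries held 20451312 to 28038612 counted reads each. These are whole cultures, in which fewer cells of a type and less RNA per cell cannot be told apart. By flow cytometry of cultures of this kind, the paper reports no change in neutrophils. It reports that Ly6C-high monocytes fell as the IPA dose rose. Marker genes of several lineages were present. The summed level of 10 neutrophil markers was 20110 to 28425 CPM (reads of a gene, scaled to the size of the library) with vehicle, 18629 to 21643 at 10 µM and 14117 to 19695 at 50 µM. The sum of 10 macrophage markers was 1729 to 1920 CPM with vehicle, 2066 to 2266 at 10 µM and 1754 to 1875 at 50 µM, and that of 6 Ly6C-high monocyte markers was 2687 to 3423, 3837 to 4923 and 2417 to 3120 CPM. B cell markers (8 genes) summed to 52.0 to 68.8 CPM with vehicle, 65.9 to 85.0 at 10 µM and 86.2 to 125 at 50 µM, and plasmacytoid dendritic cell markers (8 genes) to 75.2 to 88.0, 89.9 to 99.7 and 103 to 114 CPM. Conventional dendritic cell markers (8 genes) summed to 692 to 751, 731 to 872 and 718 to 896 CPM, and mast cell and basophil markers (6 genes) to 326 to 397, 262 to 368 and 364 to 472 CPM. T and NK cell markers (6 genes) reached at most 5.24 CPM in any library and erythroid markers (6 genes) at most 1.34 CPM. No marker was at 0 in all 12 libraries. No label gives a sequencing run or date. The 50 µM samples carry accession numbers in a later block than the vehicle and 10 µM samples, and whether they were sequenced apart from them is not given, so in every comparison of 50 µM IPA a difference in run cannot be told apart from the dose.

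The 10 genes lie on 7 chromosomes of the GRCm38 build. *Tlr1* (chr5:64924679-64933563) and *Tlr6* (chr5:64952031-64960097) are neighbours on the minus strand, 18.467 kb apart with no gene annotated between them. *Tlr8* (chrX:167242696-167264329) and *Tlr7* (chrX:167304929-167330558) also lie next to each other on the minus strand, 40.599 kb apart, and *Tlr13* (chrX:106143204-106160493) lies elsewhere on the same chromosome. *Tlr2* is at chr3:83836272-83841767, *Tlr4* at chr4:66827584-66930284, *Tlr9* at chr9:106222598-106226883 and *Unc93b1* at chr19:3935186-3949340, and *Cd14* lies on another chromosome, with a single exon. No other annotated gene overlaps any of the 10. Of all runs of 100 bases in the exons of *Tlr1*, 7.89% also occur in *Tlr6*, and 7.09% of those of *Tlr6* occur in *Tlr1*, with a longest identical stretch of 229 bases. Of runs of 50 bases, 15.4% in *Tlr1* and 12.3% in *Tlr6* also occur in other genes. Reads that lie wholly in shared sequence, within and outside the longest stretch, cannot be assigned with certainty, so the counts of both genes are uncertain. The other 8 genes share no run of 100 bases with any gene, and of runs of 50 bases *Tlr4* shares 0.216% and the other 7 none.

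RefSeq promoter windows (GRCm38.p6) were at hand for 6 of the 10 genes. The 250 bases before the annotated start are shown for *Tlr2*, *Tlr1* and *Tlr8*, the 3 of them whose expression passed a test in a comparison with 50 µM IPA, as the stretch next to the start of the genes that moved. Each is written 5′ to 3′ on the strand of the gene, with bases numbered backwards from -1 just before the start and with motif matches in capitals. The window of *Tlr2* is chr3:83841609-83841858 on the minus strand, that of *Tlr1* is chr5:64933559-64933808 on the minus strand and that of *Tlr8* is chrX:167264330-167264579 on the minus strand. The start used is that of RefSeq. Most of the *Tlr2* window and a few bases of the *Tlr1* window lie inside the genes as placed above, which follow another annotation.
Tlr2: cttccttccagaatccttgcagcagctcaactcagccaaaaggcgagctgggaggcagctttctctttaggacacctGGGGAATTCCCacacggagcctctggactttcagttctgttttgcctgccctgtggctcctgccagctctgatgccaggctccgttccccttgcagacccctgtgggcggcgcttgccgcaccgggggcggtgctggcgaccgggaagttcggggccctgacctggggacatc
Tlr1: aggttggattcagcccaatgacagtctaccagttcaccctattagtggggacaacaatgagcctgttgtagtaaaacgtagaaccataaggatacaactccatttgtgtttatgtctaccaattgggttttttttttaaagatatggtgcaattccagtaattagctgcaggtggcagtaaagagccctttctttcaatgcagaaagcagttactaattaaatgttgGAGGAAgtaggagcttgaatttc
Tlr8: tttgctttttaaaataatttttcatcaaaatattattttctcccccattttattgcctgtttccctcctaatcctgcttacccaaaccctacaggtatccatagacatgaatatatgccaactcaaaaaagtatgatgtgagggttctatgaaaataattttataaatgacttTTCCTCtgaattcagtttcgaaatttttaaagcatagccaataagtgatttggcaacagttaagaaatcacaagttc
In *Tlr2* the capitals mark overlapping matches, from -173 to -163, to the NF-κB pattern GGGNNTTCC and to the same pattern with 3 free bases in place of 2. On either strand the first pattern occurs in 4.98% and the second in 4.65% of 32851 mouse promoter windows of the same length. In *Tlr1* and *Tlr8* they mark the core motif of PU.1, the myeloid master regulator, GAGGAA, at -23 to -18 and, on the opposite strand, at -77 to -72. That motif occurs in 23.3% of all windows and also lies in the windows of *Tlr9* (-112 to -107) and *Tlr13* (-83 to -78). The AP-1 pattern TGANTCA, in 6.75% of windows, matched that of *Tlr9* (-58 to -52), and the interferon-stimulated response element, in 2.98%, matched a second window of *Tlr6*. *Tlr1* also has a second window, which held none of these patterns, and the NF-κB pattern with 3 free bases matched the first window of *Tlr6* (-99 to -90). These matches describe letters in a window, and no binding was measured.

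To compare the genes with one another, CPM was divided by the length of their exons (CPM per kilobase). With vehicle, *Tlr2* was the highest of the 10 at 146 ± 13.3 CPM per kilobase (mean ± SD, n = 4), ahead of *Unc93b1* at 101 ± 5.35 and *Cd14* at 80.4 ± 2.79. A middle group held *Tlr13*, a sensor of bacterial ribosomal RNA, at 34.5 ± 1.97 and *Tlr4* at 28.7 ± 2.19 CPM per kilobase. *Tlr8* (13.4 ± 0.800), *Tlr7* (7.64 ± 0.532) and *Tlr6* (5.54 ± 0.700) followed, and *Tlr9* (3.22 ± 0.241) and *Tlr1* (3.10 ± 0.407) were lowest. In this order only *Tlr9* and *Tlr1* had ranges that overlapped with vehicle. The order was the same at 10 µM, except that *Tlr1* (3.17 ± 0.769) and *Tlr9* (3.13 ± 0.379), whose ranges overlapped again, changed places. At 50 µM *Unc93b1* came first with 140.2 ± 4.92 CPM per kilobase and *Tlr2* second with 85.0 ± 5.52. The range of *Tlr2* then overlapped that of *Cd14* (74.8 ± 5.09), and those of *Tlr8* (12.0 ± 1.69) and *Tlr7* (9.91 ± 0.399) and of *Tlr1* (4.11 ± 0.145) and *Tlr9* (3.65 ± 0.411) overlapped too. Of the summed level of the 10 genes, *Tlr2* made up 34.5% with vehicle, 31.1% at 10 µM and 21.2% at 50 µM, and *Unc93b1* 23.8%, 24.3% and 35.0%.

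**Figure D1:**
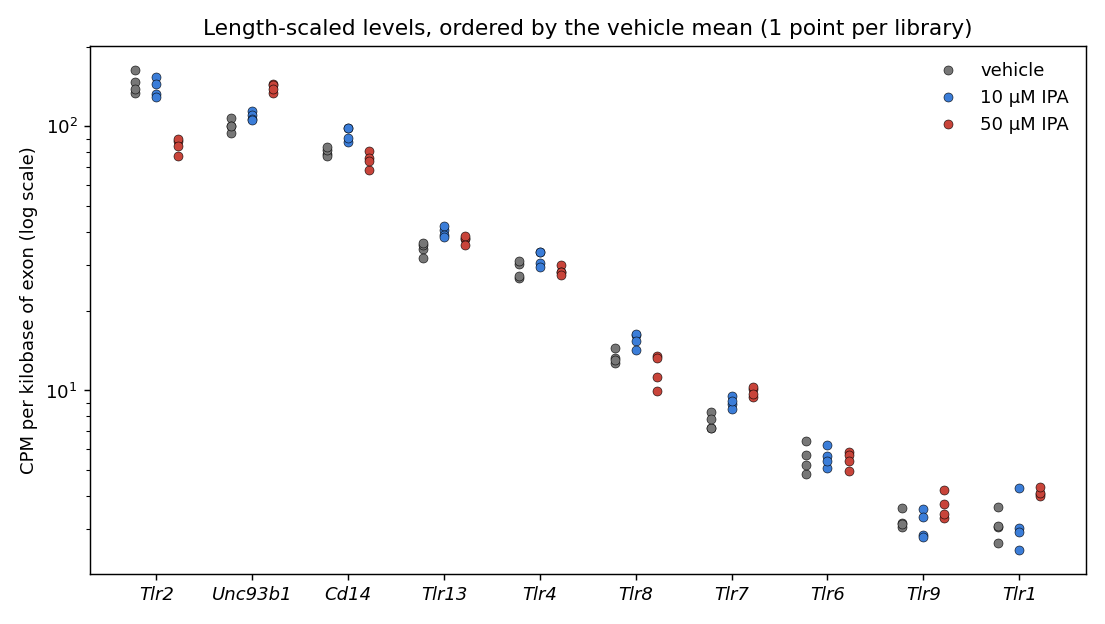
Level of each gene in CPM per kilobase of exon (log scale), with 1 point per library and the genes ordered by their vehicle mean. *Tlr2* leads with vehicle (mean 146) and *Unc93b1* at 50 µM IPA (mean 140.2), while *Tlr9* and *Tlr1* are lowest in all 3 groups.

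At 50 µM IPA, *Tlr2* was lower than with vehicle, and *Unc93b1*, *Tlr7* and *Tlr1* were higher. These 4 of the 10 genes passed an adjusted p of 0.05 by edgeR's quasi-likelihood test, as 13.5% of all genes tested did. The ranges of the vehicle and the 50 µM libraries did not overlap for the same 4 genes, which held for 20% of all genes. At 10 µM none of the 10 passed in edgeR, against 0.41% of all genes, and none passed in DESeq2 on the same 8 libraries, against 1.68%. An unadjusted p under 0.05 was reached by *Tlr7*, *Tlr8*, *Tlr13* and *Cd14*, 4 of 10 genes where 8.78% of all genes reached it. The ranges of 3 of them, *Tlr7*, *Tlr13* and *Cd14*, did not overlap with vehicle, against 6.13% of all genes. Between the doses, *Tlr2*, *Cd14* and *Tlr8* were lower and *Unc93b1* higher at 50 µM than at 10 µM, 4 of 10 genes where 15.4% of all genes passed, and their ranges did not overlap between the doses, against 20.3% of all genes. The median log2 fold change of the 10 genes was 0.13 at 10 µM, 0.05 at 50 µM and -0.06 for 50 µM against 10 µM, and that of all genes was -0.01, 0.01 and 0.01. Each pair of comparisons shares a group of libraries, so their values are set side by side and not treated as separate evidence.

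**Figure D2:**
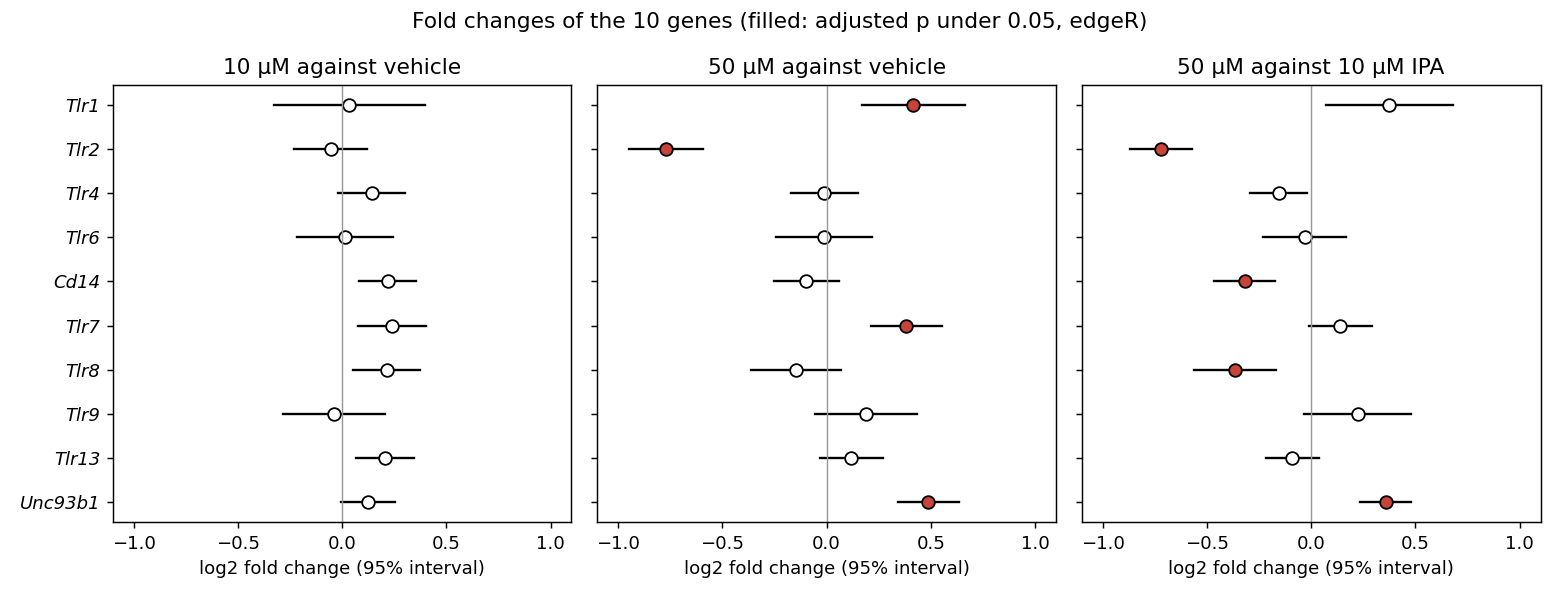
Log2 fold change of each gene in the 3 comparisons, with 95% intervals from edgeR's fit to the 8 libraries of each comparison and filled circles for an adjusted p under 0.05. No circle is filled at 10 µM, and 4 are filled in each comparison of 50 µM IPA, with *Tlr2* farthest to the left at -0.77 and -0.72.

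Among the surface receptors, *Tlr2*, the shared partner in both lipoprotein-sensing pairs, changed most in the comparisons of 50 µM IPA. Replicates 1 to 4 had 444, 402, 417 and 493 CPM with vehicle, 463, 438, 401 and 389.5 CPM at 10 µM and 266, 234, 271 and 254 CPM at 50 µM. Every 50 µM library lay below every other library, while those of vehicle and 10 µM overlapped. At 50 µM *Tlr2* fell by 41.4% against vehicle (log2 fold change -0.77, SE 0.08, adjusted p = 6.28e-05, edgeR). Against 10 µM it fell by 39.3% (-0.72, SE 0.07, adjusted p = 5.90e-06, edgeR), and 10 µM against vehicle gave -0.05 with a 95% interval from -0.23 to 0.12. Of 10 markers of neutrophils, which carry TLR2, 6 were lower at 50 µM than with vehicle and 6 lower than at 10 µM. Among all genes 6.5% and 7.85% were lower in these comparisons. Another neutrophil marker, *Ly6g*, had 45.8 ± 13.5 CPM with vehicle and 53.9 ± 8.11 at 50 µM. Of 6 Ly6C-high monocyte markers, 3 were lower at 50 µM than with vehicle (*Ccr2*, *Vcan* and *F13a1*) and 5 lower than at 10 µM. Of 10 macrophage markers, 3 were lower and 2 higher than with vehicle, and 7 lower and 1 higher than at 10 µM. The part of these cell types in the lower *Tlr2* level was not tested.

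*Tlr1*, which completes the receptor for triacylated lipopeptides, moved the other way from *Tlr2*. Its libraries had 8.85, 10.2, 10.3 and 12.2 CPM with vehicle, 14.3, 10.1, 8.35 and 9.70 CPM at 10 µM and 13.6, 13.3, 13.7 and 14.4 CPM at 50 µM. The 50 µM libraries lay close together above all vehicle libraries, and replicate 1 at 10 µM stood among them, above the other libraries of its group. At 50 µM the level was 33.4% higher than with vehicle (log2 fold change 0.42, SE 0.11, adjusted p = 0.0286, edgeR). In 7 of 8 fits that each left out 1 library this was no longer past the threshold, with an adjusted p of up to 0.0895 without vehicle replicate 1, and it held only without vehicle replicate 4 (adjusted p = 0.00722, edgeR). A fit of all 12 libraries together gave an adjusted p of 0.0651 (edgeR). Markers of B cells (6 of 6 tested), conventional dendritic cells (4 of 8) and plasmacytoid dendritic cells (3 of 7) were higher at 50 µM than with vehicle. Neutrophil (6 of 10), Ly6C-high monocyte (3 of 6) and macrophage markers (3 of 10, with 2 higher) were lower. Among all genes 7% were higher and 6.5% lower. The part of these cell types in the *Tlr1* level was not tested. Against 10 µM the log2 fold change of *Tlr1* was 0.38 (adjusted p = 0.0879, edgeR), and with 10 µM replicate 1 left out it was 0.56 (adjusted p = 0.00357).

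*Tlr6*, the partner of *Tlr2* for diacylated lipopeptides, did not pass the test in any comparison. It ranged from 17.9 to 24.0 CPM with vehicle, from 19.0 to 23.1 at 10 µM and from 18.5 to 21.8 at 50 µM, and the 3 groups overlapped. The log2 fold change at 50 µM was -0.01 with a 95% interval from -0.24 to 0.22, and at 10 µM 0.01 with an interval from -0.22 to 0.24. Within each library, the level of *Tlr2* per kilobase divided by that of *Tlr1* plus *Tlr6* was 16.9 ± 0.571 with vehicle, 16.1 ± 1.29 at 10 µM and 8.87 ± 0.242 at 50 µM. The ratio at 50 µM lay between 8.68 and 9.20, under the lowest ratio in the other groups, 14.7.

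*Tlr4*, the lipopolysaccharide receptor, had 167, 148, 151 and 172 CPM with vehicle, 186, 185, 169 and 163 CPM at 10 µM and 166, 156, 156 and 151 CPM at 50 µM. The groups overlapped and no comparison passed the test. The log2 fold change was 0.14 at 10 µM (95% interval -0.02 to 0.30), -0.01 at 50 µM (-0.17 to 0.15) and -0.16 between the doses (-0.29 to -0.02, adjusted p = 0.116, edgeR). Its partner *Ly96*, known as MD-2, was scarce at 2.83 to 5.08 CPM over the 12 libraries, and its log2 fold change at 50 µM against vehicle was -0.36 with an interval from -0.75 to 0.03 (adjusted p = 0.213, edgeR).

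*Cd14*, which hands lipopolysaccharide to the TLR4 complex and also serves TLR2, had 136, 134, 141 and 145 CPM with vehicle, 151, 170.2, 170.5 and 156 CPM at 10 µM and 139.9, 119, 132 and 128 CPM at 50 µM. All libraries at 10 µM lay above all others, and those of vehicle and 50 µM overlapped. From 10 µM to 50 µM *Cd14* fell by 19.9% (log2 fold change -0.32, SE 0.07, adjusted p = 0.00505, edgeR). At 10 µM against vehicle the value was 0.22 with a 95% interval from 0.08 to 0.36, and it did not pass after adjustment (adjusted p = 0.236, edgeR). Against vehicle, 50 µM gave -0.10 (-0.25 to 0.06). The ratio of *Cd14* to *Tlr4* per kilobase was 2.81 ± 0.180 with vehicle, 2.96 ± 0.264 at 10 µM and 2.64 ± 0.136 at 50 µM, and its ranges overlapped. Between the doses 7 of 10 macrophage markers (1 was higher) and 5 of 6 Ly6C-high monocyte markers were also lower at 50 µM. So were 6 of 10 neutrophil markers, against 7.85% of all genes. Markers of B cells (5 of 6 tested), conventional dendritic cells (2 of 8) and plasmacytoid dendritic cells (2 of 7) were higher, against 7.52%. The part of these cell types in the difference in *Cd14* was not tested.

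**Figure D3:**
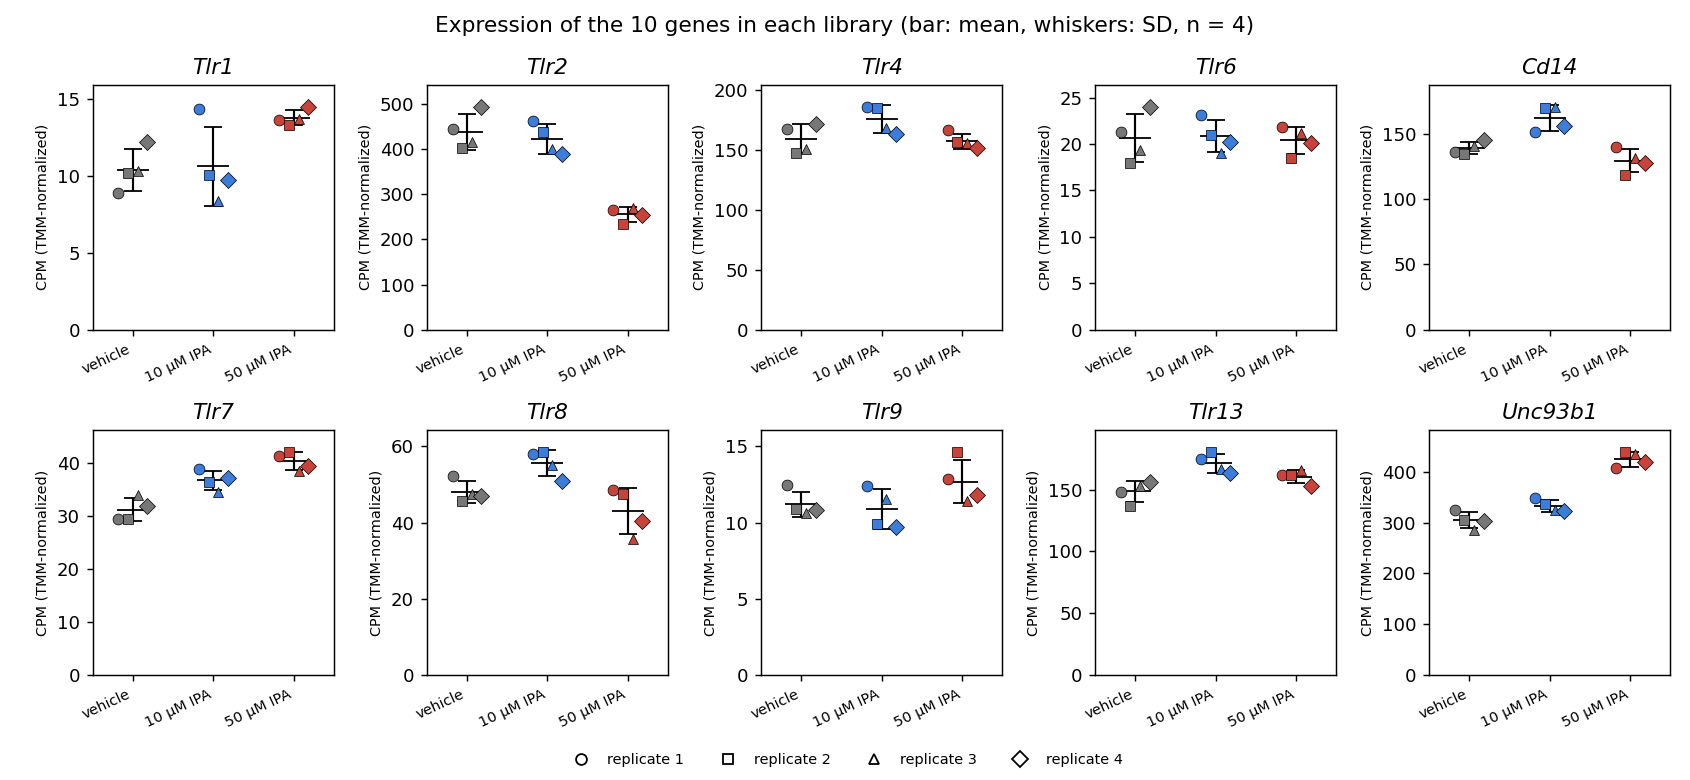
Level of each gene in CPM in each of the 12 libraries, with the replicate number as the symbol and the mean and SD (n = 4) of each group as bar and whiskers. *Tlr2* lies between 234 and 271 CPM at 50 µM IPA, below all other libraries, and *Unc93b1* between 407 and 438 CPM, above all others.

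Of the endosomal receptors, *Tlr7*, a sensor of single-stranded RNA, was higher at 50 µM IPA. Its libraries had 29.4, 29.5, 33.9 and 31.9 CPM with vehicle, 38.9, 36.4, 34.6 and 37.3 CPM at 10 µM and 41.5, 42.1, 38.6 and 39.6 CPM at 50 µM. Both IPA groups lay above all vehicle libraries, and they overlapped each other by a narrow margin. At 50 µM the level was 30.4% higher than with vehicle (log2 fold change 0.38, SE 0.08, adjusted p = 0.00692, edgeR). At 10 µM the log2 fold change was 0.24 (0.07 to 0.40) and did not pass after adjustment (adjusted p = 0.292, edgeR), and between the doses it was 0.14 with an interval from -0.01 to 0.29. Of 7 tested markers of plasmacytoid dendritic cells, which are rich in TLR7, 3 were higher at 50 µM than with vehicle. So were 6 of 6 tested B cell markers, against 7% of all genes. Vehicle and 50 µM libraries overlapped for the plasmacytoid dendritic cell markers *Siglech*, *Ccr9* and *Tcf4*, and not for *Cox6a2*, *Pacsin1* and *Bst2*. Neutrophil (6 of 10), Ly6C-high monocyte (3 of 6) and macrophage markers (3 of 10, with 2 higher) were lower. The part of these cell types in the *Tlr7* level was not tested.

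*Tlr8*, the chromosomal neighbour of *Tlr7*, followed another course. It had 52.1, 45.5, 47.4 and 46.9 CPM with vehicle, 58.0, 58.4, 55.2 and 50.8 CPM at 10 µM and 48.5, 47.5, 35.7 and 40.5 CPM at 50 µM. The 10 µM libraries lay above all 50 µM libraries, and the vehicle libraries overlapped both groups. From 10 µM to 50 µM *Tlr8* fell by 22.4% (log2 fold change -0.37, SE 0.09, adjusted p = 0.0143, edgeR), and with 50 µM replicate 4 left out its adjusted p rose to 0.0510. Of the markers, 7 of 10 for macrophages (1 was higher) and 5 of 6 for Ly6C-high monocytes were lower at 50 µM than at 10 µM too. So were 6 of 10 for neutrophils, against 7.85% of all genes. Those of B cells (5 of 6 tested), conventional dendritic cells (2 of 8) and plasmacytoid dendritic cells (2 of 7) were higher, against 7.52%. The part of these cell types in the *Tlr8* difference was not tested. Against vehicle, 10 µM gave 0.21 (0.05 to 0.37, adjusted p = 0.351, edgeR) and 50 µM gave -0.15 (-0.36 to 0.07). The ratio of *Tlr7* to *Tlr8* per kilobase was 0.573 ± 0.0571 with vehicle, 0.583 ± 0.0448 at 10 µM and 0.835 ± 0.0895 at 50 µM, with all 50 µM libraries (0.751 to 0.950) above the others (up to 0.644).

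*Tlr13* was the most abundant endosomal receptor per kilobase in every group. It had 148, 137, 153 and 156 CPM with vehicle, 175, 180.1, 167 and 164 CPM at 10 µM and 162, 162, 166 and 153 CPM at 50 µM. The 10 µM libraries lay above all vehicle libraries, and the 50 µM libraries overlapped both. The log2 fold change of 0.20 at 10 µM (0.07 to 0.34) did not pass after adjustment (adjusted p = 0.285, edgeR). A DESeq2 fit of all 12 libraries gave an adjusted p of 0.0488, a fit in which 1.93% of all genes passed. At 50 µM the value was 0.12 against vehicle (-0.03 to 0.27) and -0.09 against 10 µM (-0.22 to 0.04).

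*Tlr9*, the sensor of unmethylated CpG DNA, was close to the bottom of the range. Its libraries had 12.4, 10.9, 10.6 and 10.8 CPM with vehicle, 12.4, 9.87, 11.5 and 9.70 CPM at 10 µM and 12.9, 14.6, 11.4 and 11.8 CPM at 50 µM. The groups overlapped, and vehicle replicate 1 stood apart from the other vehicle libraries. The log2 fold change was -0.04 at 10 µM (-0.28 to 0.21), 0.19 at 50 µM (-0.06 to 0.44) and 0.22 between the doses (-0.03 to 0.48), and none passed the test.

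*Unc93b1*, which carries the nucleic acid sensors from the endoplasmic reticulum to endosomes, was higher at 50 µM IPA. Its libraries had 326, 304, 286 and 303 CPM with vehicle, 347, 336, 324 and 322 CPM at 10 µM and 407, 438, 436 and 419 CPM at 50 µM. Every 50 µM library lay above every other library, and vehicle and 10 µM overlapped through vehicle replicate 1. At 50 µM the level was 40.2% higher than with vehicle (log2 fold change 0.49, SE 0.07, adjusted p = 0.000437, edgeR) and 28.2% higher than at 10 µM (0.36, SE 0.06, adjusted p = 0.000571, edgeR). At 10 µM the value was 0.12 against vehicle, with a 95% interval from -0.01 to 0.26. The level of *Unc93b1* per kilobase divided by the summed level of *Tlr7*, *Tlr8*, *Tlr9* and *Tlr13* was 1.71 ± 0.122 with vehicle, 1.63 ± 0.0311 at 10 µM and 2.23 ± 0.126 at 50 µM. The lowest ratio at 50 µM was 2.07 and the highest in the other groups was 1.83. Against vehicle, markers of B cells (6 of 6 tested), conventional dendritic cells (4 of 8) and plasmacytoid dendritic cells (3 of 7) were higher at 50 µM. Against 10 µM, 5, 2 and 2 of them were, where the shares of all genes were 7% and 7.52%. Of 10 macrophage markers 2 were higher and 3 lower than with vehicle, and 1 higher and 7 lower than at 10 µM. Neutrophil markers (6 of 10 in both comparisons) and Ly6C-high monocyte markers (3 and 5 of 6) were lower. Of 6 mast cell and basophil markers, 1 was higher than with vehicle and 2 than at 10 µM. The part of these cell types in the *Unc93b1* level was not tested.

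**Figure D4:**
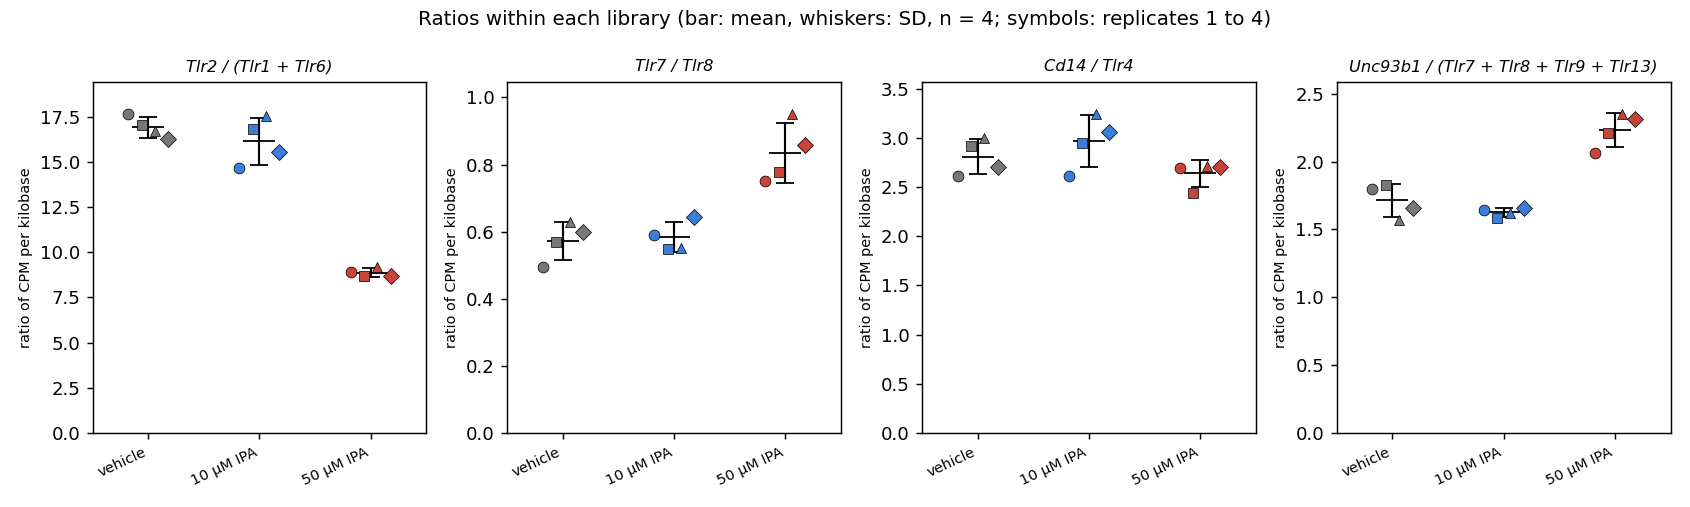
Ratios of levels per kilobase within each library, with the replicate number as the symbol and mean and SD (n = 4) per group. At 50 µM IPA *Tlr2* relative to its partners is lowest (mean 8.87), *Tlr7* relative to *Tlr8* (0.835) and *Unc93b1* relative to the endosomal receptors (2.23) are highest, and *Cd14* relative to *Tlr4* overlaps between groups.

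Across the 12 libraries, the genes most like each of the 10 in log2 CPM were found by Pearson's r. The 12 libraries come from 3 doses and no r was computed within a dose, so these values are given as a description. *Tlr2* was most like *Tspan14* (0.99) and *Cd44* (0.99), and *Unc93b1* most like *Ltbp3* (0.99) and *Galm* (0.98). For *Tlr7* the closest were *Abi2* (0.95) and *Ctsl* (0.94), for *Tlr8* *Gm5431* (0.96), and for *Tlr13* *Kcnn4* (0.96) and *Ctsb* (0.94). The others had *Idi1* and *Pgap2* (*Tlr1*, both 0.93), *Cdc42ep2* and *Itgb1* (*Tlr4*, both 0.93), *Slc7a2* and *Plod1* (*Cd14*, both 0.92), *Paics* and *Taldo1* (*Tlr6*, 0.91 and 0.90) and *B3gat3* and *Gnl1* (*Tlr9*, 0.93 and 0.87). Between the 10 genes themselves, *Tlr2* and *Unc93b1* had an r of -0.90 and *Tlr7* and *Unc93b1* one of 0.78, while *Tlr7* and *Tlr8* had -0.13 and *Tlr1* and *Tlr6* 0.35.

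Other genes of the pathway were followed as 7 lists holding 94 genes, of which 90 could be tested. *Sarm1*, *Il10* and *Ifnb1* had at most 5 reads in any library. *Hgs*, an endosomal sorting gene that most cells use, is listed at 0 in all 12 libraries under both of its identifiers, which is no measure of its expression. At 50 µM against vehicle 10 of the 90 were higher and 10 lower, with a median log2 fold change of -0.04. At 10 µM 3 were higher and none lower (median 0.03), and between the doses 11 were higher and 20 lower at 50 µM (median -0.07). All genes tested had 7% higher and 6.5% lower at 50 µM against vehicle, 0.329% and 0.0806% at 10 µM, and 7.52% and 7.85% between the doses. The count at 10 µM turned on single libraries, since it was 0 without vehicle replicate 1 or without 10 µM replicate 2, 1 without vehicle replicate 2 or 10 µM replicate 1, and 5 without vehicle replicate 4. The calls of *Ctsl*, *Cd36* and *Ccl2* at 10 µM were thus each lost without vehicle replicate 1, without 10 µM replicate 2 and with a block for the replicate number.

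**Figure D5:**
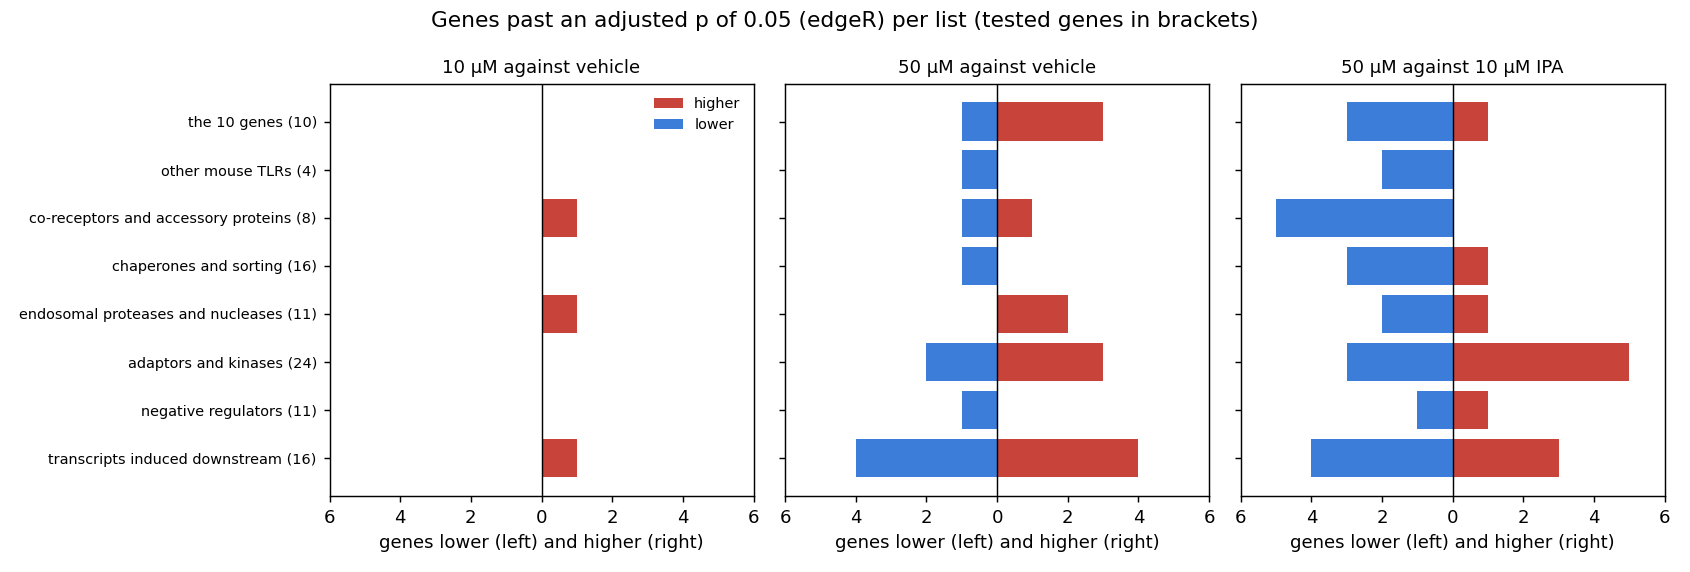
Number of genes past an adjusted p of 0.05 (edgeR) in each list, lower to the left and higher to the right, in the 3 comparisons, with the number tested in brackets. At 10 µM 3 lists have 1 gene each, and between the doses 5 co-receptor and accessory genes are lower and none is higher.

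The other 4 mouse Toll-like receptors were scarce. *Tlr3*, the endosomal sensor of viral RNA duplexes, had 2.11 to 4.23 CPM with vehicle, 2.70 to 4.49 at 10 µM and 1.26 to 2.10 at 50 µM. It was lower at 50 µM than with vehicle (log2 fold change -1.001, SE 0.27, adjusted p = 0.0243, edgeR) and than at 10 µM (-1.05, adjusted p = 0.0110, edgeR), on 26 to 124 reads per library. *Tlr5*, the flagellin receptor, did not pass at 50 µM against vehicle (-0.44, adjusted p = 0.255, edgeR) or against 10 µM (-0.61, adjusted p = 0.110, edgeR). *Tlr11* was lower at 50 µM than at 10 µM (-1.74, adjusted p = 0.0376, edgeR) on 2 to 30 reads per library, and *Tlr12*, with 5 to 19 reads, did not pass in any comparison.

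Of 8 tested co-receptors and accessory proteins, 1 was higher and 1 lower at 50 µM than with vehicle. *Lbp*, the lipopolysaccharide-binding protein that delivers its cargo to CD14, dropped from 49.2 ± 3.71 CPM to 30.2 ± 4.70 (-0.69 on the log2 scale, adjusted p = 0.000915, edgeR). *Ly86* (MD-1) rose (0.42, adjusted p = 0.0279, edgeR). At 10 µM *Cd36*, a scavenger receptor that assists TLR2, was higher than with vehicle (0.68, adjusted p = 0.0450, edgeR), a call lost without vehicle replicate 1. Between the doses 5 of the 8 were lower at 50 µM and none was higher, among them *Cd180* (-0.46, adjusted p = 0.00115), *Clec7a*, the beta-glucan receptor (-0.51, adjusted p = 0.00550), *Lbp* (-0.41, adjusted p = 0.0118) and *Grn* (-0.23, adjusted p = 0.0207), all by edgeR. In that comparison 7 of 10 macrophage (1 was higher), 5 of 6 Ly6C-high monocyte and 6 of 10 neutrophil markers were lower as well. Higher were 5 of 6 tested B cell, 2 of 8 conventional and 2 of 7 plasmacytoid dendritic cell markers. The part of these cell types in these values was not tested.

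Of 16 tested chaperones and sorting factors, 1 was lower at 50 µM than with vehicle, near the 6.5% of all genes. *Hsp90b1* (gp96), which folds most Toll-like receptors, and its cofactor *Cnpy3* did not pass in any comparison, and their log2 fold changes at 50 µM against vehicle were -0.14 (-0.28 to 0.00323) and 0.10 (-0.05 to 0.25). *Ap3s1*, a subunit of the AP-3 sorting complex, was the gene that was lower (-0.34, adjusted p = 0.0220, edgeR). *Slc15a4*, a lysosomal transporter needed for TLR7 and TLR9 signalling, had -0.26 there (adjusted p = 0.0559, edgeR) and was lower at 50 µM than at 10 µM (-0.30, adjusted p = 0.0144, edgeR). Between the doses *Pikfyve* was also higher (0.29, adjusted p = 0.0104) and *Ap3s1* (-0.25, adjusted p = 0.0230) and *Rab7b* (-0.28, adjusted p = 0.0374) lower at 50 µM by edgeR's test.

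Proteases and nucleases of the endosome had the highest median of the 7 pathway lists at 10 µM, 0.29 over 11 genes. Higher medians there were those of macrophage markers (0.41 over 10 genes, 3 called higher), Ly6C-high monocyte markers (0.38 over 6 genes, 1 called higher) and B cell markers (0.31 over 6 tested genes), and their part in the protease values was not tested. *Ctsl*, a cathepsin that can process TLR9, rose from 379 ± 59.9 CPM with vehicle to 662 ± 47.3 at 10 µM and 852 ± 59.1 at 50 µM. The log2 fold changes were 0.80 at 10 µM (adjusted p = 0.0102) and 1.17 at 50 µM (adjusted p = 1.54e-05), and 0.37 between the doses (adjusted p = 0.00188), all by edgeR, with the call at 10 µM lost without vehicle replicate 1. *Lgmn*, the asparagine endopeptidase, was higher at 50 µM than with vehicle (0.76, adjusted p = 0.000755, edgeR). *Ctss* (-0.53, adjusted p = 3.50e-05) and *Ctsk* (-1.01, adjusted p = 0.000869) were lower at 50 µM than at 10 µM by edgeR's test. There 7 of 10 macrophage (1 was higher), 5 of 6 Ly6C-high monocyte and 6 of 10 neutrophil markers were lower too. Higher were 5 of 6 tested B cell, 2 of 8 conventional and 2 of 7 plasmacytoid dendritic cell markers. The part of these cell types in the *Ctss* and *Ctsk* values was not tested.

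Among 24 adaptors, kinases and transcription factors downstream of the receptors, 3 were higher and 2 lower at 50 µM than with vehicle. *Irf5*, a transcription factor activated through MyD88, rose from 257 ± 15.9 to 376 ± 23.6 CPM (0.56, adjusted p = 0.000285, edgeR), and *Tab1* (0.42, adjusted p = 0.0235) and *Irak2* (0.30, adjusted p = 0.0341) were also higher. *Tirap*, the bridging adaptor that brings MyD88 to TLR2 and TLR4, fell from 51.1 ± 4.97 to 37.7 ± 2.34 CPM (-0.43, adjusted p = 0.00562, edgeR). *Myd88* itself was the other gene that was lower (-0.26, adjusted p = 0.0348, edgeR). Between the doses 5 were higher and 3 lower at 50 µM, led by *Ikbke* (0.66, adjusted p = 5.60e-05) and *Irf5* (0.45, adjusted p = 0.000632), with *Tirap* lower (-0.39, adjusted p = 0.00604) and *Irak2* higher (0.30, adjusted p = 0.00747), by edgeR. Of 11 negative regulators, *Lyn*, a kinase with inhibitory and activating roles, was lower at 50 µM than with vehicle (-0.34, adjusted p = 0.00829, edgeR) and than at 10 µM (-0.29, adjusted p = 0.00271, edgeR), and *Cyld*, a deubiquitinase, was higher than at 10 µM (0.21, adjusted p = 0.0207, edgeR).

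Transcripts that Toll-like receptor signalling induces went in both directions. At 50 µM against vehicle 4 of 16 were higher and 4 lower. The chemokines *Ccl2* (1.28, adjusted p = 1.66e-05) and *Ccl3* (0.67, adjusted p = 0.000200) were higher, while *Ptgs2*, the inducible prostaglandin synthase (-1.097, adjusted p = 0.000217), and *Socs3*, a feedback inhibitor of cytokine signalling (-0.64, adjusted p = 0.000103), were lower by edgeR's test. At 10 µM *Ccl2* was the gene of this list that passed (0.73, adjusted p = 0.0277, edgeR), and it did not without vehicle replicate 1. Between the doses 3 were higher and 4 lower at 50 µM. *Nos2*, the inducible nitric oxide synthase, spread widely within groups, with 6.73 to 44.5 CPM with vehicle, 27.6 to 72.8 at 10 µM and 1.68 to 5.96 at 50 µM, and fell by 3.52 on the log2 scale between the doses (adjusted p = 3.01e-06, edgeR). *Tnf* was higher (0.68, adjusted p = 8.25e-06) and *Il1b* (-0.72, adjusted p = 8.53e-05) and *Socs3* (-0.68, adjusted p = 4.46e-06) lower at 50 µM than at 10 µM by edgeR's test. Between the doses 7 of 10 macrophage (1 was higher), 5 of 6 Ly6C-high monocyte and 6 of 10 neutrophil markers were lower too. Higher were 5 of 6 tested B cell, 2 of 8 conventional and 2 of 7 plasmacytoid dendritic cell markers. The part of these cell types in the values of this list was not tested.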

How the data were processed

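Per the labels and the methods, RNA of the 12 cultures was made into stranded mRNA libraries. The authors aligned the reads to mm10 with HISAT2 (version 2.2.1) and assigned them to Ensembl genes with featureCounts (2.0.1). The deposited table holds unnormalized counts, all of them whole numbers. Whether featureCounts used the strand is not given in the sources used here. The title of 10 µM replicate 3 repeats that of replicate 2, so its library name was used. No pair of replicates agreed within sampling noise.

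A gene was tested if 2 or more of the 12 libraries, of whichever group, exceeded 0.5 CPM (14894 genes). Groups were compared in 3 pairs of 8 libraries each with edgeR 4.0.16 in R 4.3.3 (TMM normalization, glmQLFit and glmQLFTest). Values of p were adjusted by the Benjamini-Hochberg method over all genes tested, with a threshold of 0.05. The SE is the log2 fold change, without its sign, divided by the root of F. CPM values were TMM-normalized over the 12 libraries, and exon lengths came from GENCODE M21. Alternatives used DESeq2 1.42.0, limma-voom 3.58.1, other size factors, other filters, all 12 libraries, a block for the replicate number, an offset for exon length and each library left out. The 10 genes, the lists and the motifs were chosen with earlier results of these data known. All 10 genes were named, and of the lists up to 4 genes per comparison with the smallest adjusted p under 0.05, plus *Tlr3*, *Tlr5*, *Tlr11*, *Tlr12*, *Ly96*, *Hsp90b1*, *Cnpy3* and *Slc15a4*. *Myd88* was added after its values were seen. For each of the 10 genes the 2 most alike by Pearson's r of log2 CPM (prior count 2) were named, except 1 that is not reported here. Plots were drawn with matplotlib 3.10.9.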

Additional observations from a re-analysis of the deposited data

Results flagged for a closer look

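Of 30 groups of 4 libraries checked (10 genes in 3 groups), 1 held a library far from the others by Dixon's criterion, and chance gives about 1 in 20. *Tlr9* in vehicle replicate 1 was at 12.4 CPM, while the other vehicle libraries had 10.6 to 10.9 CPM. *Tlr9* passed the test in no comparison, with or without that library.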

How the results depend on the processing

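The calls for *Tlr2*, *Tlr7* and *Unc93b1* at 50 µM against vehicle, and for *Tlr2*, *Unc93b1* and *Cd14* between the doses, held in all 9 alternatives and in all 8 fits that left out 1 library. *Tlr8* between the doses held in all 9 alternatives and 7 of 8 such fits. *Tlr1* at 50 µM against vehicle held in 8 of 9 alternatives and 1 of 8 such fits, and between the doses it passed with no filter on low counts (adjusted p = 0.0372, edgeR) and without 10 µM replicate 1. At 10 µM, 1 of the 10 genes (*Tlr13*) passed in DESeq2's fit of all 12 libraries and none otherwise. The number of pathway genes called at 10 µM, 3 in the report, was 8 with DESeq2, 8 with no filter, 6 with all 12 libraries in the edgeR fit and 11 with them in DESeq2, and from 0 to 5 with 1 library left out. With the replicate number as a block it was 0. Same-numbered libraries did not deviate together (r from -0.24 to 0.14 over 12 pairs), and the block changed no call of the 10 genes. Whether cultures were matched across the groups cannot be read from this, since matched cultures may carry different numbers. The paper compared flow cytometry values of such cultures by a repeated-measures test. Changes of sign occurred only with 1 library left out and only in values that passed no test. At 10 µM *Tlr1* then ranged from -0.15 to 0.14 (log2 fold change), *Tlr2* from -0.10 to 0.00596, *Tlr6* from -0.0498 to 0.0934 and *Tlr9* from -0.11 to 0.0184. At 50 µM against vehicle *Tlr4* ranged from -0.0537 to 0.0284 and *Tlr6* from -0.0837 to 0.0662, and between the doses *Tlr6* from -0.0709 to 0.0269. The cause of these moves was not tested. *Tlr1* and *Tlr9*, at 204 to 399 reads per library, had the widest intervals of the 10 genes.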
